A study of Mus musculus with 8 samples.

Results

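The mouse genes for the insulin-like growth factor (IGF) binding proteins Igfbp2, Igfbp3, Igfbp4, Igfbp5, Igfbp6 and Igfbp7 were taken by gene symbol from the deposited count table, which gave 6 of its 54532 entries. RNA sequencing had been performed on primary lung fibroblasts, connective tissue cells grown out of minced lung, from female mice on a C57/black background. The 4 wild type libraries are called WT1 to WT4. The 4 libraries labelled hIGFBP5 HOMO, called HOMO1 to HOMO4, came from homozygous mice in which CRISPR/Cas9 knock-in had placed human IGFBP5 for ubiquitous expression. The cells of both genotypes were grown in complete medium with serum and received no treatment. The age of the mice, the number of mice and the number of founder lines are not given in the sources used here, and the human transcript was not analysed here. The question was how the endogenous mouse family differed between fibroblasts with and without the human transgene.

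The IGF binding proteins are secreted proteins that bind IGF-I and IGF-II outside the cell. Depending on the protein and the tissue they hold the ligands away from the IGF-I receptor, carry them, or keep them as a local store, and proteases release the ligands by cutting the binding proteins. Several of them also bind extracellular matrix and cell surface, and in lung they are best known from fibroblasts, where IGFBP3 and IGFBP5 have been linked to fibrosis. IGFBP7 belongs to the family by its amino-terminal domain but binds IGFs weakly.

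The family is held together by cysteine-rich domains at both ends of the protein, and the stretches below are shown because they tell the 6 genes apart in kind. They were read from the longest annotated coding sequence of each gene in GENCODE M21, on mouse assembly GRCm38 (mm10). A search of the coding sequence for the codons of cysteine, glycine, cysteine and cysteine, followed by any 2 codons and a further cysteine codon, found the amino-terminal signature in 5 of the 6 genes. The capitals mark the first 4 of those codons, and each sequence is written 5′ to 3′ on the coding strand.
Igfbp2, chr1:72824778-72824801, plus strand: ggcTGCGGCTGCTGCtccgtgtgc
Igfbp3, chr11:7213566-7213589, minus strand: ggcTGCGGCTGCTGCctgacttgc
Igfbp4, chr11:99041650-99041673, plus strand: ggcTGCGGTTGTTGCgccacttgc
Igfbp5, chr1:72873966-72873989, minus strand: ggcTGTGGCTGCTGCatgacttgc
Igfbp7, chr5:77407826-77407849, minus strand: gcgTGCGGGTGCTGCccggtgtgt
Igfbp6 held no such run. It also had the fewest cysteine codons, 16, against 18 to 20 in the other 5 genes.

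At the carboxy-terminal end, a thyroglobulin-type stretch that closes on the codons of cysteine, tryptophan, cysteine and valine was found in 5 of the 6 genes. It is shown here because it sets Igfbp7 apart. The capitals mark those 4 codons, and in each gene the 48 bases lie on either side of an intron, so that the coordinates span more than the stretch.
Igfbp2, chr1:72849702-72852042, plus strand: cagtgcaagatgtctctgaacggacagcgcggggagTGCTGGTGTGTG
Igfbp3, chr11:7208464-7209461, minus strand: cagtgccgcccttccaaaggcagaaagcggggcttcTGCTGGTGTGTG
Igfbp4, chr11:99049226-99051489, plus strand: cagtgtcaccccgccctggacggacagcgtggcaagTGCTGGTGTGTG
Igfbp5, chr1:72862464-72863145, minus strand: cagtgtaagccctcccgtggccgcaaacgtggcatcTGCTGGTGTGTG
Igfbp6, chr15:102148222-102149224, plus strand: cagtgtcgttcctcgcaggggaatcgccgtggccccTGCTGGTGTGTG
Igfbp7 held no such stretch. Aligned pairwise over their whole coding sequences, the 6 genes were 55.9% to 62.2% identical. The longest exact run shared by 2 members was 33 bases, between Igfbp2 and Igfbp3, and the other 14 pairs shared at most 22 bases.

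The genes lie at 5 places in the genome. Igfbp2 (chr1:72824503-72852474, plus strand) and Igfbp5 (chr1:72857932-72874884, minus strand) stand end to end, 5.5 kb apart. Igfbp3 (chr11:7206086-7213923, minus strand) and Igfbp4 (chr11:99041244-99054392, plus strand) are on the same chromosome but far from each other. Igfbp6 is at chr15:102144362-102149511 on the plus strand, and Igfbp7 is at chr5:77349240-77408041 on the minus strand. Counts were per gene over exons. Igfbp7 shared 85 exon bases, 7.03% of its exon length, with Polr2b on the opposite strand, and the other 5 genes shared none with any annotated gene.

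The libraries held 17236521 to 31987790 counts each. WT1 was nearly identical to WT2, as was HOMO1 to HOMO2 and HOMO3 to HOMO4. In that order, the pairs' biological coefficients of variation, a measure of spread beyond counting error, were 7.65%, 4.71% and 5.07%, against 30.0% to 56.4% for every other pair within a genotype. Each pair still differed by more than sampling noise (chi-square per degree of freedom 4.04 to 8.22), which does not show that its libraries are independent. The sources do not state whether a pair came from the same animal or culture. The libraries were kept apart, and n = 4 below counts libraries. The p-values then measure the spread between libraries, which may be partly technical. Of the marker lists, 5 haematopoietic markers (Ptprc, Cd68, Adgre1, Csf1r, Lyz2) summed to 1857 CPM (counts per 1000000 of the TMM-scaled library size) in WT3 and 1091 CPM in WT4. In WT1 and WT2 the sum was 109 and 140 CPM. Within HOMO it was 24.1 and 23.0 CPM in HOMO1 and HOMO2 and 131 and 152 CPM in HOMO3 and HOMO4. The fibroblast markers (8 genes, led by Col1a1 and Col1a2) summed to 9925 to 14029 CPM in WT and 12459 to 22319 CPM in HOMO. Of the 8, 7 were not called and Pdgfrb was called lower by the edgeR rule given below. Pdgfrb was at 554 to 958 CPM in WT and 288 to 409 CPM in HOMO (log2 fold change -0.97, adjusted p = 0.0251). Col1a1 was higher in HOMO without overlap (0.82, adjusted p = 0.0985 by edgeR). Thy1 was at 71.7 to 264 CPM in WT, 25.6 and 22.3 CPM in HOMO1 and HOMO2 and 109 and 112 CPM in HOMO3 and HOMO4. Here a marker list is summed over cells, and fewer cells of a type cannot be told apart from less RNA per cell.

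Of the 6 members, 4 were called, Igfbp2, Igfbp4, Igfbp5 and Igfbp7, and all 4 were lower in HOMO. All 6 members passed the filter on low counts. A call means an adjusted p under 0.05 in edgeR's quasi-likelihood test, Benjamini-Hochberg adjusted over 14150 genes, with a log2 fold change beyond 0.6 either way. Among all genes tested, 12.1% were called in either direction and 6.18% were called lower (5.94% higher). The CPM ranges of the genotypes did not overlap for the same 4 members, and over all genes tested 27.3% did not overlap, and 13.4% were lower in HOMO without overlap. In the edgeR fits that each left out 1 library, used below, 5.38%, 4.30%, 7.02% and 5.96% of genes were called lower without WT1, WT2, WT3 and WT4, and 1.38%, 1.40%, 3.19% and 3.02% without HOMO1, HOMO2, HOMO3 and HOMO4. The median log2 fold change was -3.11 for the members and -0.04 for all genes tested.

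**Figure D1:**
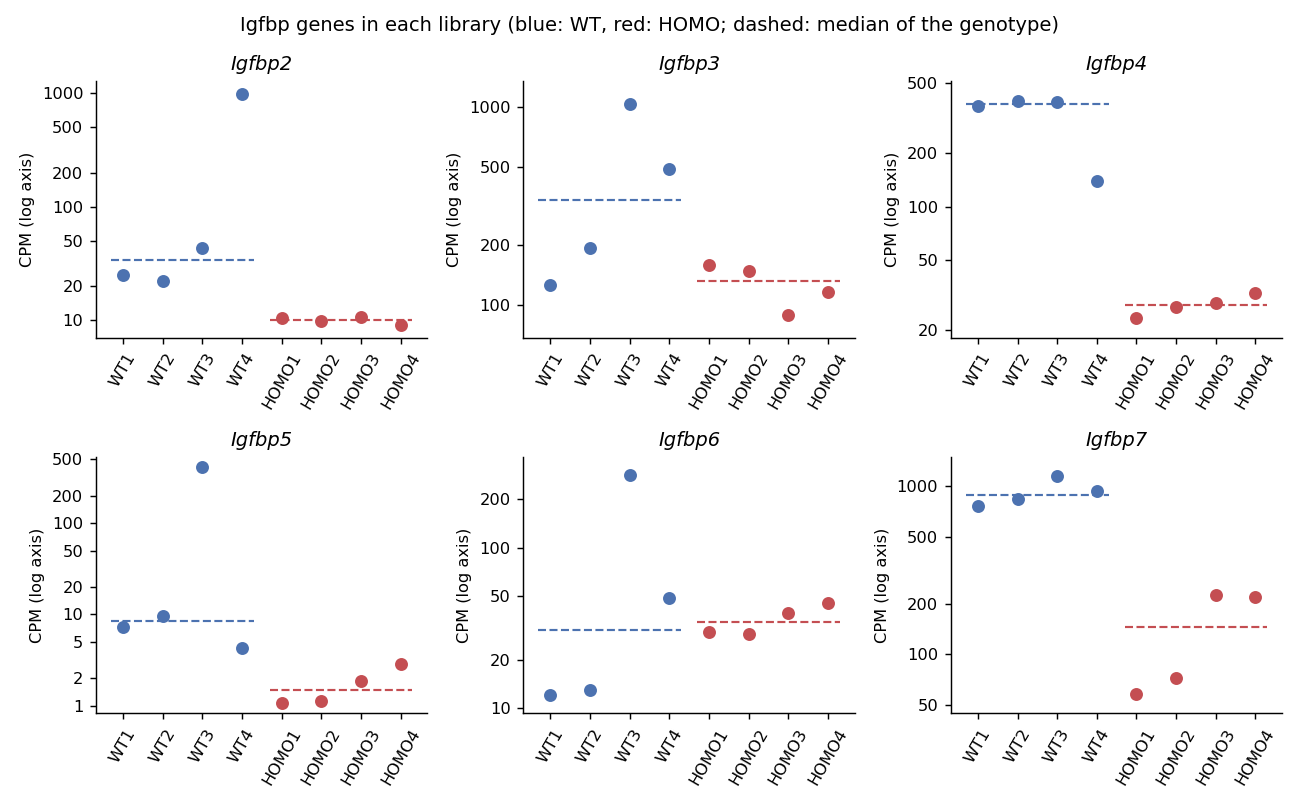
CPM of each Igfbp gene in each library, on a log axis that differs between panels. Points are single libraries (blue WT, red HOMO) and dashed lines are the medians of the 4 libraries of a genotype. Igfbp4 and Igfbp7 were separated in every library, Igfbp2 and Igfbp5 had 1 WT library far above the other 3, and Igfbp3 and Igfbp6 overlapped between the genotypes.

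Igfbp4 encodes a binding protein known chiefly as an inhibitor of IGF action, which the protease PAPP-A cuts in the presence of IGF. Its level was 370, 396, 391 and 140 CPM in WT1 to WT4 and 23.5, 27.1, 28.6 and 32.4 CPM in HOMO1 to HOMO4. The counts behind these were 3606 to 9223 per WT library and 527 to 895 per HOMO library. All 4 HOMO libraries lay close together and far below WT, and WT4 lay apart from the other 3 WT libraries but still above HOMO. The means were 324 ± 123 CPM (SD, n = 4) and 27.9 ± 3.703 CPM (SD, n = 4), which is 11.6-fold lower in HOMO. The log2 fold change was -3.54 (SE 0.34, adjusted p = 0.00124 by edgeR). It was called in each of the 8 fits without 1 library, at log2 fold changes of -3.79 to -3.43. With the near-identical libraries summed, which left 3 WT and 2 HOMO, the log2 fold change was -3.43 but the adjusted p was 0.166, and no gene at all was called by edgeR, although 2057 genes had an unadjusted p under 0.05.

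Igfbp7 encodes the low-affinity member, a secreted protein found in the matrix around vessels. Its level was 766, 847, 1156 and 937 CPM in WT1 to WT4 and 57.9, 72.4, 225 and 219 CPM in HOMO1 to HOMO4. Every WT library was above every HOMO library, and within HOMO the libraries fell into 2 pairs, the same pairs as the near-identical libraries. The mean of HOMO3 and HOMO4 was 222 CPM and that of HOMO1 and HOMO2 was 65.2 CPM, a 3.41-fold gap. The means were 926 ± 168 CPM in WT and 144 ± 90.9 CPM in HOMO (SD, n = 4 each), which is 6.45-fold lower in HOMO. The log2 fold change was -2.69 (SE 0.47, adjusted p = 0.0109 by edgeR). It was called in each of the 8 fits without 1 library, between -2.99 and -2.42, and it was not called with near-identical libraries summed (-2.73, adjusted p = 0.240). Polr2b, whose exons overlap the gene, had 90.4 ± 9.05 CPM in WT and 82.9 ± 4.14 CPM in HOMO and was not called (log2 fold change -0.13, adjusted p = 0.494). Smooth muscle and pericyte markers (5 genes, led by Acta2) followed the same split within HOMO, with a sum of 198 and 205 CPM in HOMO1 and HOMO2 and 1451 and 1426 CPM in HOMO3 and HOMO4. In WT that sum, most of it Acta2, was 772 to 2705 CPM and overlapped HOMO. Of the 5 genes only the pericyte marker Rgs5 was called, as lower (log2 fold change -5.20, adjusted p = 0.0486 by edgeR), and 4 were not called. Rgs5 was at 0.69 to 36.1 CPM in WT and 0 to 0.66 CPM in HOMO, so the ranges missed each other only narrowly. Its counts were 59, 90, 12 and 932 in WT1 to WT4 and 2, 0, 13 and 10 in HOMO1 to HOMO4. WT4 was far above the other WT libraries, and the HOMO values were of few reads. Haematopoietic markers were split the same way within HOMO, at 24.1 and 23.0 CPM in HOMO1 and HOMO2 and 131 and 152 CPM in HOMO3 and HOMO4. The paper described a weaker signature in HOMO3 and HOMO4 than in HOMO1 and HOMO2, and related it to transgene levels that varied between mice. The level of the human transcript was not analysed here. The part of the transgene level or of any of these cells in the Igfbp7 result was not tested.

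Igfbp2 encodes a binding protein that is abundant in fetal tissues and prefers IGF-II. Its level was 24.8, 22.1, 43.4 and 987 CPM in WT1 to WT4 and 10.3, 9.77, 10.6 and 9.07 CPM in HOMO1 to HOMO4. WT4 alone was 22.7-fold above the next WT library and held 91.6% of the WT sum, while the 4 HOMO libraries differed by 1.17-fold at most. The groups did not overlap. The means were 269 ± 479 CPM in WT and 9.95 ± 0.68 CPM in HOMO (SD, n = 4 each), and the log2 fold change was -4.76 (SE 1.34, adjusted p = 0.0487 by edgeR). Without WT4 it was -1.60 (SE 0.25, adjusted p = 0.0102), still called but far smaller. Leaving out any 1 HOMO library ended the call, with adjusted p between 0.107 and 0.138, and so did limma-voom with sample weights (-1.30, adjusted p = 0.0518). DESeq2 gave no p for Igfbp2, because it flagged an outlying count, and called the gene once that flagging was turned off (-4.77, adjusted p = 0.00145; 9.16% of genes called lower).

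Igfbp5 is the mouse counterpart of the transgene. Its protein has a basic stretch that binds heparin and matrix, and it is the substrate of several proteases, PAPP-A2 among them. The raw counts of WT1 to WT4 were 130, 225, 7130 and 112, and those of HOMO1 to HOMO4 were 24, 37, 37 and 57. On the CPM scale these were 7.31, 9.65, 409 and 4.34 in WT and 1.07, 1.12, 1.88 and 2.86 in HOMO. WT3 was 42.4-fold above the next WT library and held 95.1% of the WT sum, but the lowest WT library was also above the highest HOMO library. The log2 fold change was -5.97 (SE 1.66, adjusted p = 0.0469 by edgeR), with means of 108 ± 201 CPM in WT and 1.73 ± 0.84 CPM in HOMO (SD, n = 4 each). Without WT3 it was -2.04 (SE 0.43, adjusted p = 0.0195). As for Igfbp2, the call ended when any 1 HOMO library was left out (adjusted p 0.0966 to 0.139). DESeq2 gave no p with its flagging of outlying counts and called the gene without it (-5.95, adjusted p = 0.000377). With limma-voom, which called 11.1% of genes lower, the log2 fold change was -2.38 (adjusted p = 0.00418). The reads had been aligned to the mouse genome, so how many reads of the human transcript could be counted at mouse Igfbp5 was not tested. The paper reported mouse Igfbp5 as undetectable in both genotypes (data not shown) and its mRNA as unaffected by the transgene. The counts above differ from that, and the reason was not tested.

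Igfbp2 and Igfbp5 are neighbours, yet the WT library with the high value differed between them. In WT4, where Igfbp2 was at 987 CPM, Igfbp5 was at 4.34 CPM, its lowest WT value. In WT3, where Igfbp5 was at 409 CPM, Igfbp2 was at 43.4 CPM. On the log2 scale the ratio of Igfbp2 to Igfbp5 CPM ran from -3.24 in WT3 to 7.83 in WT4, and from 1.67 to 3.27 in HOMO. Haematopoietic markers were high in both WT3 and WT4, while Igfbp5 was high in 1 of them and Igfbp2 in the other. Whether those cells had a part in either result was not tested.

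Igfbp3 encodes the main IGF carrier of serum and, like Igfbp5, has a basic stretch in its carboxy-terminal part. Its level was 126, 193, 1039.8 and 486 CPM in WT1 to WT4 and 158, 148, 88.8 and 117 CPM in HOMO1 to HOMO4. WT3 and WT4 were above all other libraries, whereas WT1 was below HOMO1 and HOMO2, so the groups overlapped. The log2 fold change was -1.85 (SE 0.61, adjusted p = 0.0759 by edgeR), which was not a call. DESeq2, which called 9.04% of genes lower, called it at nearly the same size (-1.84, adjusted p = 0.0103), and edgeR called it without WT1 (-2.16, adjusted p = 0.0381). With limma-voom it was -0.63 (adjusted p = 0.0678), not called. Without WT3 the log2 fold change was -1.07, and without both WT3 and WT4, a choice made after seeing the data, it was -0.32 (adjusted p = 0.376). The 2 libraries with high Igfbp3 were those with high haematopoietic markers, whose part in the values was not tested.

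Igfbp6 encodes the member with a strong preference for IGF-II. Its level was 12.04, 13.0, 283 and 48.7 CPM in WT1 to WT4 and 29.6, 29.0, 38.9 and 44.9 CPM in HOMO1 to HOMO4. WT1 and WT2 were below every HOMO library and WT3 and WT4 were above every one. The log2 fold change was -1.32 (SE 0.93, adjusted p = 0.354 by edgeR), which was not a call, and its sign rested on 1 library. Without WT3 it was 0.53 (adjusted p = 0.491). With limma-voom, which gives outlying libraries less weight, it was 1.47 (adjusted p = 0.00160; 14.2% of genes called higher). Without WT3 and WT4 it was 1.504 (adjusted p = 0.00480; 11.8% of genes called higher). The last value compares HOMO with the near-identical pair WT1 and WT2 only. Mesothelial markers (4 genes, among them Msln and Upk3b) were likewise lowest in WT1 and WT2, at 21.2 and 22.0 CPM in sum, against 138 to 203 CPM in WT3 and WT4 and 97.1 to 134 CPM in HOMO. Of the 4, the transcription factor gene Wt1 was called higher in HOMO without overlap, at 1.12 to 8.66 CPM in the WT libraries and 26.8 to 40.6 CPM in HOMO (log2 fold change 3.36, adjusted p = 0.0166 by edgeR), and the other 3 genes were not called. The part of these markers in the Igfbp6 values was not tested.

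**Figure D2:**
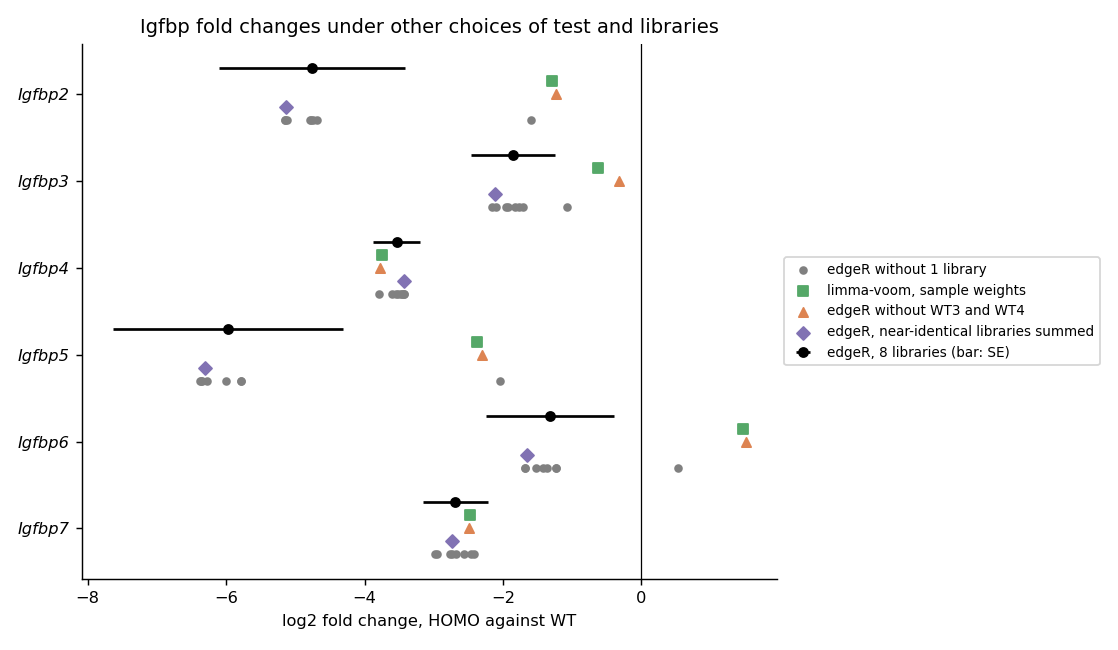
Log2 fold change of each Igfbp gene, HOMO against WT, on the horizontal axis. Black points are the edgeR values over 8 libraries with the SE as bars, grey points leave out 1 library each, and the coloured symbols are 3 other choices of test or libraries. Igfbp4 and Igfbp7 stayed between -3.79 and -2.42 in the fits without 1 library, and Igfbp6 fell on both sides of 0.

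The exact permutation test of single genes, two-sided over the 70 ways to divide 8 libraries into 4 and 4, cannot go below 0.0286. Igfbp2, Igfbp4, Igfbp5 and Igfbp7 were at that smallest value, Igfbp3 was at 0.0857 and Igfbp6 at 0.83, for the difference of mean CPM. Any gene whose genotypes do not overlap gets the smallest value, so for these 4 genes the test only repeats the lack of overlap given above. It also treats the 8 libraries as exchangeable, which the near-identical pairs put in doubt. These p-values are not adjusted for the 6 genes.

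Levels were compared between the genes per length, as CPM divided by the exon length in kilobases (RPKM). In WT the order of the means was Igfbp7 (766 ± 139 RPKM), Igfbp3 (147 ± 133), Igfbp2 (146 ± 259), Igfbp6 (80.2 ± 117), Igfbp4 (73.4 ± 28.0) and Igfbp5 (17.9 ± 33.5), with SD over 4 libraries. The place of Igfbp2 rests on WT4. By the median the WT order was Igfbp7 (738 RPKM), Igfbp3 (109), Igfbp4 (86.2), Igfbp6 (27.7), Igfbp2 (18.5) and Igfbp5 (1.41), and in WT1 and WT2 Igfbp4 came directly after Igfbp7. Igfbp7 was above Igfbp3 without overlap, and no other pair of neighbours in the WT order was separated. In HOMO the order of the mean RPKM was Igfbp7 (119 ± 75.2), Igfbp3 (40.9 ± 10.1), Igfbp6 (32.01 ± 6.90), Igfbp4 (6.32 ± 0.84), Igfbp2 (5.38 ± 0.37) and Igfbp5 (0.288 ± 0.139). There, Igfbp6 was above Igfbp4 and Igfbp2 was above Igfbp5 without overlap, while Igfbp7 and Igfbp3, Igfbp3 and Igfbp6, and Igfbp4 and Igfbp2 overlapped. With the length of the longest transcript in place of the exon length, neighbours in the middle of both orders changed places.

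The 6 genes together reached 783, 877, 1723 and 1541 RPKM in WT1 to WT4 and 136, 145, 262 and 272 RPKM in HOMO1 to HOMO4. Every WT library was above every HOMO library, and the mean was 1231 ± 471 RPKM in WT and 204 ± 73.2 RPKM in HOMO, 6.04-fold apart. Igfbp7 was the most abundant member in 7 of 8 libraries, and in HOMO1 it was Igfbp3. The makeup of the sum varied within each genotype. Igfbp7 made up 80.9% and 79.9% of it in WT1 and WT2, 55.5% in WT3 and 50.3% in WT4. In HOMO its share was 35.2% and 41.3% in HOMO1 and HOMO2 and 71.0% and 66.8% in HOMO3 and HOMO4. Igfbp2 held 34.7% of the sum in WT4 and at most 4.11% in any other library.

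**Figure D3:**
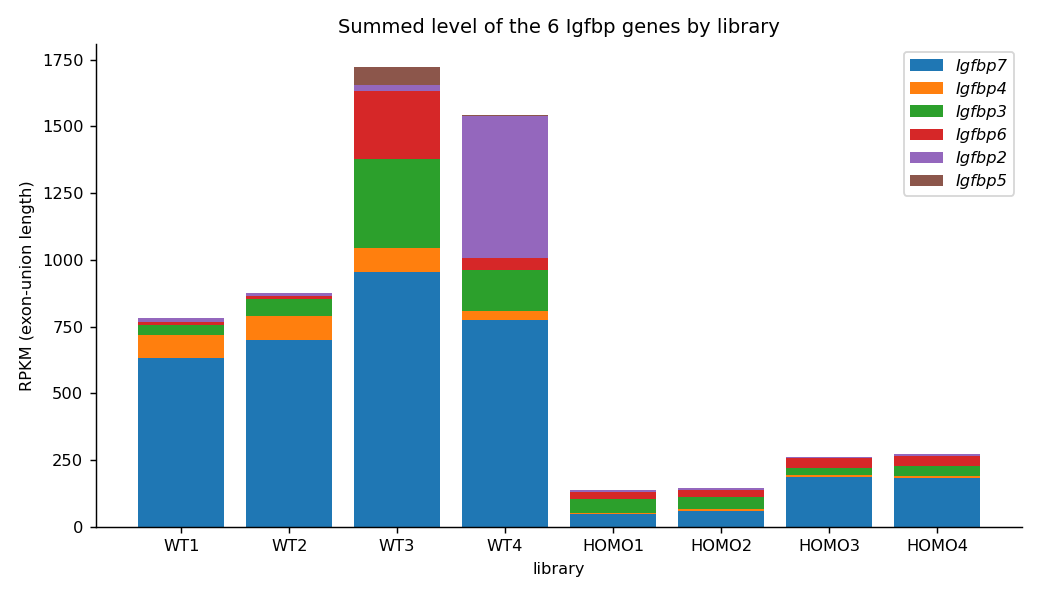
Summed level of the 6 Igfbp genes in each library, in RPKM over the exon length, with each gene as a segment of the bar. The WT bars reach 783 to 1723 RPKM and the HOMO bars 136 to 272 RPKM. In WT3 the segments of Igfbp3 and Igfbp6 are large, and in WT4 that of Igfbp2 is large.

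Across the 8 libraries the members did not follow a single pattern. Igfbp4 and Igfbp7 had the highest Pearson correlation of log2 CPM, 0.903, Igfbp3 and Igfbp5 came next with 0.794, and Igfbp4 and Igfbp6 had the lowest, 0.04. The neighbours Igfbp2 and Igfbp5 had 0.278. These are descriptions over 8 libraries that share their genotype split and the near-identical pairs.

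Among 9441 genes with a mean of at least 10 CPM, the gene whose log2 CPM was most like that of Igfbp7 over the 8 libraries was Hoxb9 (r = 0.998), followed by Hoxb5 (0.994) and Hoxb8 (0.993), homeobox genes of 1 cluster that specify position along the body axis. Hoxb9 was at 22.2, 20.8, 27.5 and 25.7 CPM in WT1 to WT4 and 2.63, 3.15, 8.21 and 7.32 CPM in HOMO1 to HOMO4. It had the same split within HOMO as Igfbp7, and its log2 fold change was -2.18 (adjusted p = 0.0112 by edgeR). Those of Hoxb5 and Hoxb8 were -3.10 and -2.67 (adjusted p = 0.00572 and 0.00579). These genes were picked for likeness to Igfbp7 over the same 8 libraries. Their split, fold changes and p-values follow from that choice and are no separate evidence.

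The genes most like Igfbp4 were Pcdhgb2, a clustered protocadherin (r = 0.994), Epn2 (0.992) and Ctr9 (0.990). Pcdhgb2 was at 34.8, 35.2, 29.1 and 12.001 CPM in WT1 to WT4 and 1.82 to 3.61 CPM in HOMO, so it too was lowest within WT in WT4. For Igfbp2 the nearest genes were Rusc2, Irgq and Plekhm2 (r = 0.985 to 0.991), each highest in WT4. For Igfbp5 they were Ifitm3, an interferon-induced membrane protein gene, Pfdn4 and Rnf121 (0.992 to 0.997), each highest in WT3. Igfbp3 was followed by Slc30a9, Fam8a1 and Bnip3 (0.992 to 0.996) and Igfbp6 by Ppic, Rpl13a and Ppp2cb (0.991 to 0.995), all 6 highest in WT3. None of these last 12 genes was called. With 9441 genes and 8 libraries in near-identical pairs, high values of r are easily reached. A gene picked in this way shares the high and low libraries of its member by selection, which is not a separate result.

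The genes beside the members on the chromosome were mixed. Tns4, 11.3 kb from Igfbp4, was lower in HOMO, at 0.57 to 9.002 CPM in WT and 0 to 0.41 CPM in HOMO (log2 fold change -5.42, SE 1.13, adjusted p = 0.0194 by edgeR). These are levels of few reads in HOMO, and WT3, at 0.57 CPM, lay close to HOMO3, at 0.41 CPM. Top2a, on the other side of Igfbp4, had -0.05 and was not called. Tns3, the next protein-coding gene on the right of Igfbp3 at 1218 kb, was lower at 296 to 374 CPM in HOMO against 704 to 1232 CPM in WT (-1.50, SE 0.19, adjusted p = 0.00408). Tns3 and Tns4 both encode proteins of the tensin family. Rpl37a beside Igfbp2, Spryd3 and Soat2 beside Igfbp6, and Noa1 beside Igfbp7 were not called, with log2 fold changes of 0.27, -0.23, 1.19 and -0.52.

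The remaining family genes were at or near the limit of detection. Igfbp1, 3.5 kb from Igfbp3, had 3 counts over all 8 libraries, and Igfbpl1 had 6. A count of 0 in a library allows a level of up to 0.091 to 0.172 CPM, counting error only, so differences in these 2 genes were not detectable at this depth.

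The ligands, receptors, proteases and adaptors of the IGF system were described as a list of 22 genes. Of these, 16 were tested, 2 were called higher in HOMO, 1 was called lower and 13 were not called, and the median log2 fold change was -0.14. Among all genes tested, 5.94% were called higher and 6.18% lower, and so few list genes allow no statement about the list. Igf1 had 84.5 ± 47.1 CPM in WT and 66.0 ± 24.7 CPM in HOMO (log2 fold change -0.36, adjusted p = 0.569). Igf2 was at 7.14, 9.18, 0.17 and 21.5 CPM in WT1 to WT4 and 2.85, 2.30, 0.61 and 1.203 CPM in HOMO1 to HOMO4 (-2.44, adjusted p = 0.136). It overlapped between the genotypes because WT3 was the lowest library of all, whereas Igfbp5 and Igfbp6 were highest there. The signalling receptor Igf1r had -0.41 (adjusted p = 0.112) and the clearance receptor Igf2r had -0.30 (adjusted p = 0.226).

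Among the proteases, Pappa2, which cuts IGFBP3 and IGFBP5, was higher in HOMO. Its level was 1.41, 0.99, 2.18 and 1.05 CPM in WT1 to WT4 and 3.08, 2.96, 3.50 and 4.66 CPM in HOMO1 to HOMO4, with no overlap (log2 fold change 1.34, SE 0.34, adjusted p = 0.0363 by edgeR). Pappa, which cuts IGFBP4, was at 3.04 to 22.1 CPM in WT and 4.21 to 17.04 CPM in HOMO (-0.19, adjusted p = 0.880). Prss23, a secreted serine protease gene, was lower, with 370 ± 94.2 CPM in WT and 199 ± 13.4 CPM in HOMO (-0.90, adjusted p = 0.0254). Grb14, an adaptor that binds the insulin and IGF-I receptors and dampens their signal, was higher at 50.4 ± 13.2 CPM in WT and 101 ± 14.7 CPM in HOMO (1.01, adjusted p = 0.0158).

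Of 14 genes in the table related to the family by an IGFBP-type domain or name, 10 were tested, 3 were called lower and 7 were not called, and the median log2 fold change was -0.83. The share called lower among all genes tested was 6.18%, and no test of the list was made. Wisp2 (Ccn5), a matricellular protein gene, was at 618, 706, 591 and 1509 CPM in WT1 to WT4 and 37.0, 38.9, 163 and 188 CPM in HOMO1 to HOMO4. It had the same split between the HOMO pairs as Igfbp7, and a log2 fold change of -3.00 (SE 0.63, adjusted p = 0.0203 by edgeR). Crim1, a transmembrane protein gene, had 643 ± 243 CPM in WT and 351 ± 13.7 CPM in HOMO (-0.88, adjusted p = 0.0448). Htra4, a serine protease gene, was at 0.92 to 5.38 CPM in WT and 0.04 to 0.21 CPM in HOMO (-4.32, adjusted p = 0.00742), a level near that of single reads in HOMO. Of the 3 Igf2bp genes, which encode RNA-binding proteins and share only the name, Igf2bp2 was higher, with 80.4 ± 6.18 CPM in WT and 159 ± 24.7 CPM in HOMO (0.98, adjusted p = 0.00584).

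**Figure D4:**
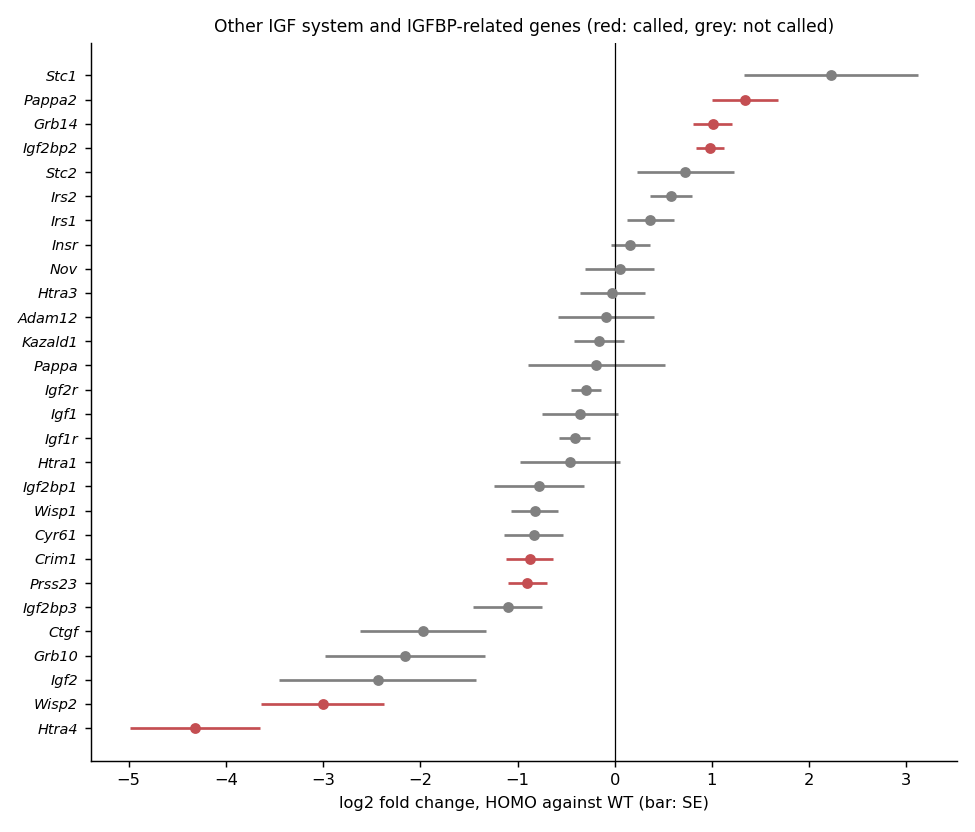
Log2 fold change, HOMO against WT, with the SE as bars, of the tested genes of the IGF system, of the IGFBP-related genes and of the Igf2bp genes. Red points are called (adjusted p under 0.05 and beyond 0.6 either way) and grey points are not. Of the called genes, 3 lie above 0 (Pappa2, Grb14, Igf2bp2) and 4 below (Prss23, Crim1, Wisp2, Htra4).

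The sums of the other marker lists were low and overlapped between the genotypes. Epithelial markers (5 genes) summed to 0.39 to 4.71 CPM in WT and 3.97 to 14.95 CPM in HOMO, and endothelial markers (4 genes) to 1.33 to 4.22 CPM and 1.43 to 4.004 CPM. The highest epithelial sum in WT was mostly Krt18 in WT3, at 4.65 CPM. Of the 2 epithelial markers tested, Krt18 was not called. Cdh1 was called higher without overlap, at 0 to 0.50 CPM in WT and 1.16 to 2.21 CPM in HOMO (log2 fold change 2.77, adjusted p = 0.0462 by edgeR). Sftpc and Scgb1a1, not tested, had 48 and 110 counts in HOMO2, 99 and 130 in HOMO3, and at most 3 in any other library. No marker of any list was at or under 3 counts in all 8 libraries.

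**Figure D5:**
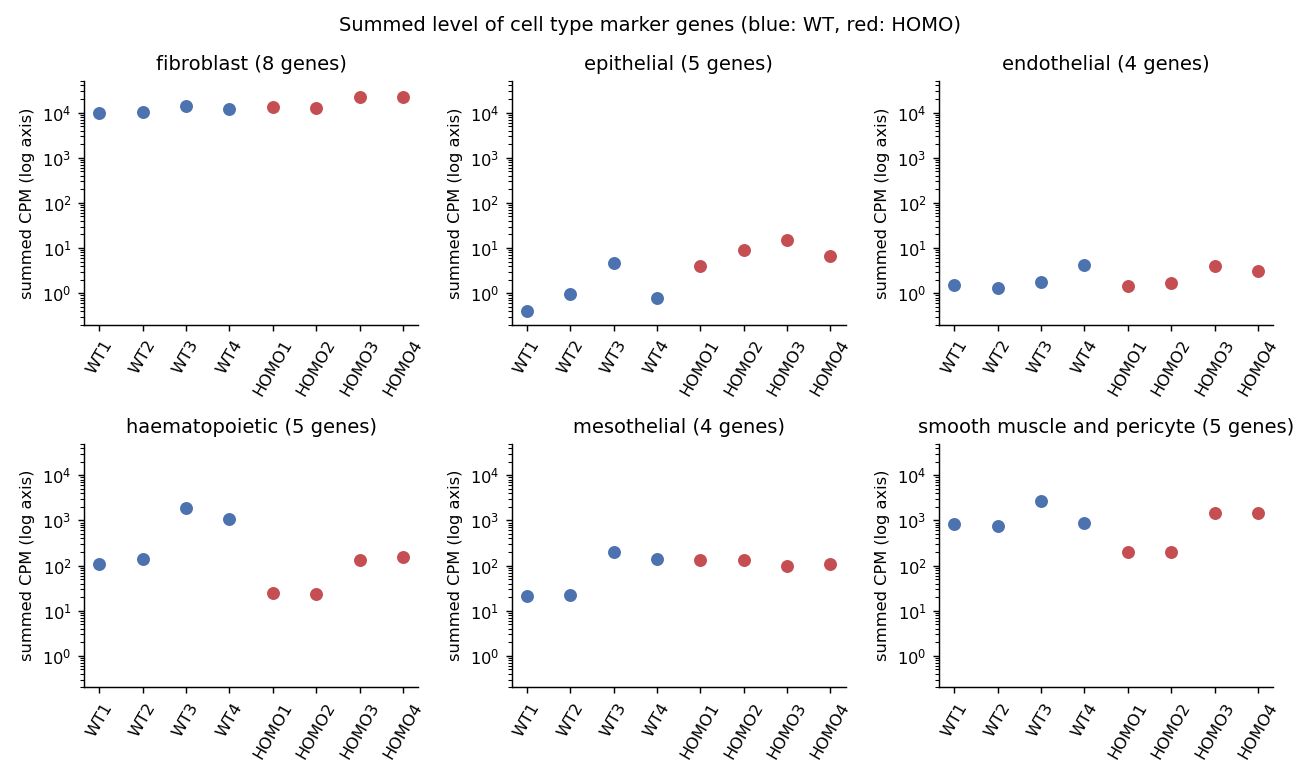
Summed CPM of the marker genes of 6 cell types in each library, on a log axis that is the same in all panels (blue WT, red HOMO). Haematopoietic markers reach 1857 CPM in WT3 and 1091 CPM in WT4, where Igfbp3 is also highest. Both haematopoietic markers and smooth muscle and pericyte markers split HOMO1 and HOMO2 from HOMO3 and HOMO4.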

How the data were processed

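Total RNA was made into 8 poly-A selected libraries and read as paired ends. Per the labels and the methods, the authors trimmed reads with fastp, aligned them to mm10 with STAR and deposited raw counts per gene made with featureCounts. Versions, annotation and strand setting are not given in the sources used here, nor is the meaning of the word in the table's name that speaks of outliers being out. Genotypes were taken from the labels.

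Counts were fitted with edgeR 4.0.16 (R 4.3.3, TMM scaling, filterByExpr by genotype, quasi-likelihood F test, two-sided) over all genes tested. Standard errors were obtained as |log2 fold change| over the root of F. CPM used TMM-scaled library sizes, log2 CPM a prior count of 2, and RPKM the exon union of GENCODE M21. DESeq2 1.42.0 and limma 3.58.1 (voom with sample weights), 2 other scalings, 2 other filters, robust dispersion, a replicate block, summed near-identical libraries, no fold threshold and each library left out were alternatives. WT3 and WT4 left out together, and DESeq2 without outlier flagging, were added after seeing the data. The fits were tested on simulated data with independent libraries and the same dispersion for all genes. That simulation held no near-identical pairs and no outlying library, so it does not bear on the p-values under such conditions.

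Named were the 6 members, the called genes of the IGF lists, Igf1, Igf2, their receptors, Pappa and Pappa2, tested neighbours on the chromosome, and the 3 genes most correlated with each member. Polr2b, Rgs5, Wt1, Pdgfrb, Thy1, Cdh1, Krt18, Sftpc and Scgb1a1 were added after their values were seen. The members and lists were chosen with earlier results of these data known. Totals ran from 17236521 to 31987790 counts per library, and floors of 3 counts cover counting error only.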

Additional observations from a re-analysis of the deposited data

Results flagged for a closer look

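Single WT libraries stood apart in 4 of the 6 genes. On the CPM scale the gap to the nearest other library, as a share of the range of the 4 WT libraries, was 0.978 for Igfbp2 in WT4 (987 CPM against 22.1 to 43.4), 0.987 for Igfbp5 in WT3 (409 CPM against 4.34 to 9.65) and 0.865 for Igfbp6 in WT3 (283 CPM against 12.04 to 48.7). Igfbp4 was low in WT4, at 140 CPM against 370 to 396, with a gap of 0.898 of the range. On the log2 CPM scale only Igfbp4 in WT4 passed the same limit, at 7.13 against 8.53 to 8.63, a gap of 0.935 of the range. The gap was looked for in 12 groups on each scale. Chance gives it in about 1 group in 20 where the 4 libraries are independent and their values follow a normal distribution. Whether CPM follows one was not tested, and both genotypes here held near-identical pairs. Igfbp4 in WT4 was nevertheless above all 4 HOMO libraries.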

How the results depend on the processing

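Igfbp4 and Igfbp7 were lower under each alternative, and their calls ended only when near-identical libraries were summed (-3.43 and -2.73), which left 0 of the 6 members, 0 of the IGF list genes and 0 of all genes called by edgeR, while 2057 genes had an unadjusted p under 0.05. Igfbp2 was -5.14 and Igfbp5 -6.31 with the same libraries summed, neither called. With limma-voom Igfbp2 was -1.30 and Igfbp3 -0.63, neither called, and Igfbp5 was -2.38 and called. Igfbp3 was -1.84 and called with DESeq2, with or without outlier flagging. DESeq2 gave no p for Igfbp2 and Igfbp5 with its flagging and called both without it (-4.77 and -5.95). Igfbp6 turned to 1.47 with limma-voom, 1.504 without WT3 and WT4, and 0.53 without WT3. The cause was not tested.

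Leaving out 1 library at a time gave -5.15 to -1.60 for Igfbp2, -2.16 to -1.07 for Igfbp3, -3.79 to -3.43 for Igfbp4, -6.37 to -2.04 for Igfbp5, -1.69 to 0.53 for Igfbp6 and -2.99 to -2.42 for Igfbp7. The number of members called ran from 2, without any 1 HOMO library, to 5, without WT1. The IGF list genes called, 7 in all, ran from 2 to 11: 2 without HOMO1 or HOMO2, 4 without HOMO3, HOMO4 or WT1, and 11 without WT3. Of all genes, 1716 were called, and 507 without HOMO1, 512 without HOMO2, 1040 without HOMO3, 980 without HOMO4 and 2192 without WT3.

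The IGF list genes called were 14 with DESeq2 (also without flagging), 15 with limma-voom and 11 without WT3 and WT4. All genes called were 2913 with DESeq2, 2963 without its flagging, 3573 with limma-voom and 3117 without WT3 and WT4. The replicate numbers are shared by the genotypes but deviations of same-numbered libraries had correlations of -0.12 to 0.01, so the numbers were not taken as pairs. With a replicate block, Igfbp2 was -2.43 and Igfbp5 -3.30, neither called, and Igfbp6 was -0.01. The block left 2 members and 947 genes in all called. The shallowest library held 17236521 counts, and the effect of depth was not tested. Igfbp1 and Igfbpl1 had too few counts to compare.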
